A study of Mus musculus with 4 samples.

Results

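The expression of 10 Notch pathway genes was read out in Py-4-1 cells, a mouse line grown from a hemangioendothelioma, which is an endothelial tumour. The genes were the receptors Notch1, Notch2 and Notch4, the ligands Dll1, Dll4, Jag1 and Jag2, the DNA-binding factor Rbpj and the target genes Hes1 and Hey1. They were chosen by name, and every probe set that the platform annotation assigns to one of these symbols alone was kept, which gave 17 probe sets for 10 of the 12393 genes named on the array. A total of 7 genes had 2 probe sets each and 3 had 1. The groups compared were 2 clones transfected with pcDNA (the control plasmid) and 2 transfected with pcDNA/Prox1, labelled as stably expressing Prox1, a transcription factor of lymphatic endothelium. All 4 clones share the cell line and a stable transfection, and each was measured once, on 1 one-colour Affymetrix array, from a culture dish close to confluence. The promoter driving Prox1 is not given in the sources used here. With 1 array per clone, differences between clones cannot be told apart from those of culture, RNA or array handling, and p-values measure the spread between these arrays.

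Notch receptors sit in the cell membrane and are activated by Delta-like and Jagged ligands on a neighbouring cell. The activated receptor is cut, first by an ADAM protease and then by gamma-secretase, and its intracellular part joins Rbpj in the nucleus to switch on genes of the Hes and Hey repressor families. In blood vessels this pathway is known for supporting arterial identity and for limiting sprouting through Dll4, whereas Nr2f2 in veins opposes it and Prox1 marks lymphatic vessels.

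Values are MAS5 intensities on a linear scale. Each array had the same 2% trimmed mean of 500, and array medians ran from 163 to 179.7. The Prox1 probe set (1421336_at) was not higher in the clones labelled as expressing it, with 52.1 and 60.5 in pcDNA clones 1 and 2 and 62.4 and 44.3 in pcDNA/Prox1 clones 1 and 2, so the groups are named below by their plasmid. Endothelial identity was plain in both groups, since 8 of 8 endothelial markers passed the intensity filter, with summed intensities from 26478 to 36590.1 and no marker past the test. The summed level of 7 smooth muscle and pericyte markers lay between 619 and 894, that of 5 fibroblast markers between 302 and 454, that of 4 leukocyte markers between 316 and 535, and that of 4 epithelial markers between 188 and 335. The filter was passed by 2 of the 7 smooth muscle and pericyte markers (Acta2 and Des), 1 of the 5 fibroblast markers (Col1a2), 1 of the 4 leukocyte markers (Csf1r) and 0 of the 4 epithelial markers. The brightest readings in these lists were 408 for Acta2, 191 for Col1a2, 443 for Csf1r and 221 for Krt8, and the dimmest markers were Pdgfrb (at most 11.6), Dcn (20.4), Cd3e (32.2) and Epcam (11.9). The array also carries 27 probe sets for Bacillus genes, absent from mouse, whose highest signal read 45.3 to 101 and is used below as a mark of background. The Prox1 probe set exceeded it on 1 of the 4 arrays, so its readings near background do not show whether Prox1 was expressed. With 47 added to each intensity, as in the tests, the pcDNA clones differed at least 2-fold from each other at 355 of 11656 tested probe sets. The pcDNA/Prox1 clones did so at 60.

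Of the 10 genes, 8 had a probe set above the median of its array in at least 2 of the 4 arrays, the filter for testing, and these 8 were covered by 11 of the 17 probe sets. Notch2 and Hey1 had none. By limma, with Benjamini-Hochberg adjustment over the whole table, 0 of the 11 passed an adjusted p of 0.05, against 12 of 11656 probe sets, or 0.103%, over the whole array. At an unadjusted p under 0.05 there were 2, a probe set of Notch4 and a probe set of Dll4, where the share over the array was 14.5%. The Dll4 probe set passed the filter only through the pcDNA clones, where it is high, so nothing is read from that count. Of the 11 changes 6 were positive and 5 negative (51.5% of the array's tested probe sets were positive), with a median of 1.1e-05 on the log2 scale, and under quantile normalization or median centring 4 were positive and 7 negative. With the values as deposited, the median over all probe sets tested was 0.012. The 2 groups did not overlap at 4 of the 11, where this was seen at 46.2% of tested probe sets. Higher in the pcDNA/Prox1 clones were 2 of them (23.9% over the array) and lower another 2 (22.3%). Over all 17 probe sets, tested or not, 5 did not overlap, against 41.1% over the array. In an exact permutation test, 2 clones against 2 cannot give a 2-sided p under 0.333.

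**Figure D1:**
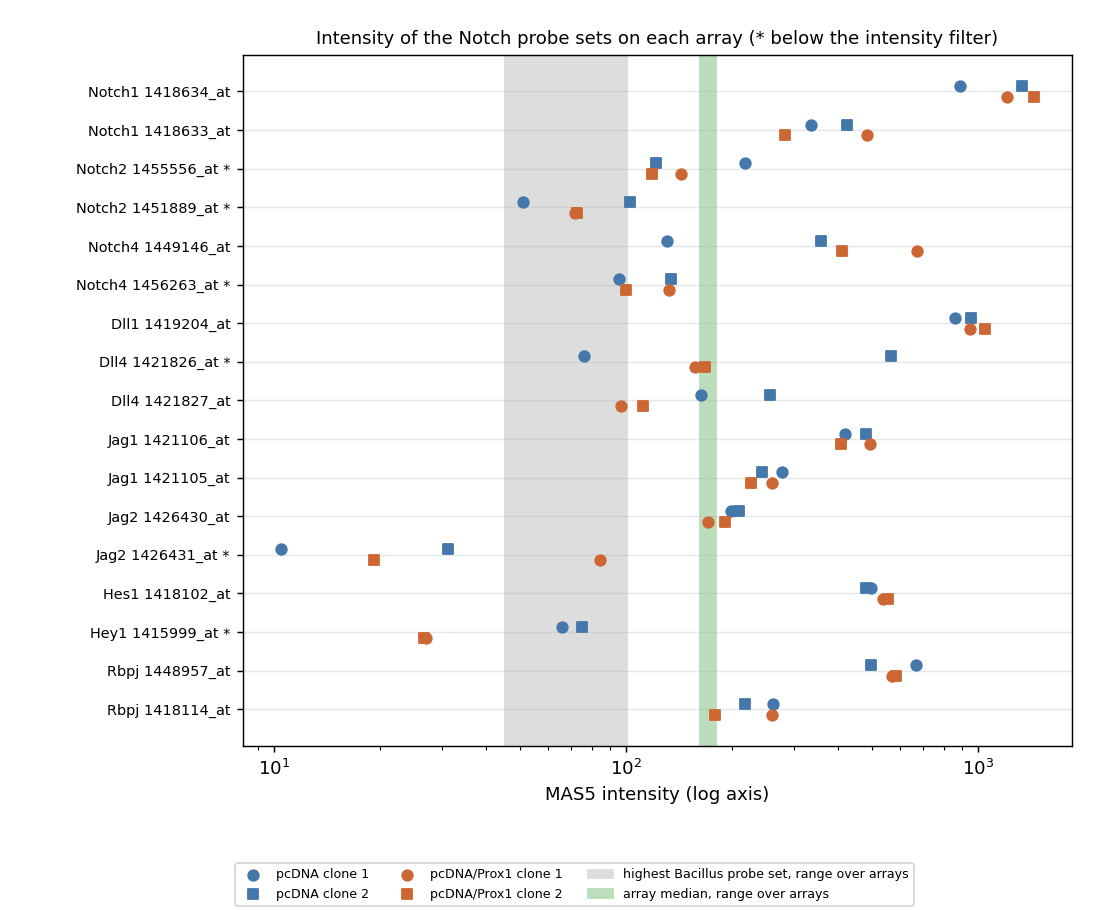
MAS5 intensity (log axis) of each of the 17 Notch probe sets on the 4 arrays, with pcDNA clones in blue and pcDNA/Prox1 clones in orange, circles for clone 1 and squares for clone 2, and asterisks on probe sets below the filter. The grey band is the range of the highest Bacillus probe set over the arrays and the green band that of the array medians. Notch4 1449146_at, Dll4 1421827_at, Hey1, Jag2 1426430_at and Hes1 are the 5 probe sets whose orange and blue points do not overlap, and the pcDNA points of Dll4 1421826_at lie farthest apart.

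Upstream sequence is shown for the receptor and the ligand with the largest tested changes, Notch4 and Dll4, and for Rbpj, which holds matches to the motif its own protein binds. Each is the 250 bases before a RefSeq gene start of assembly GRCm38.p6, and 8 of the 10 genes matched the promoter table, with 10 starts. Hes1 and Hey1 did not. Motifs were searched on both strands as TGGGAA (the core of the Rbpj motif), AGGAAG (an Ets core, bound by a family active in endothelium) and GGGCGG (the GC box), and matches of different motifs did not overlap in the windows shown. Capitals mark the matches, which in Notch4 are of AGGAAG, in Dll4 of GGGCGG and in Rbpj of TGGGAA. The windows are chr17:34564045-34564294 for Notch4, chr2:119325534-119325783 for Dll4 and chr5:53590096-53590345 for Rbpj, all on the plus strand.
Notch4: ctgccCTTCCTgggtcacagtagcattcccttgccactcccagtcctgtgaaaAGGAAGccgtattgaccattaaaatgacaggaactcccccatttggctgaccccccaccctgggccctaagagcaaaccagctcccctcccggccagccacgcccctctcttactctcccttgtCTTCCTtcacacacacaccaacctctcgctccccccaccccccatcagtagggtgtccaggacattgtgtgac
Dll4: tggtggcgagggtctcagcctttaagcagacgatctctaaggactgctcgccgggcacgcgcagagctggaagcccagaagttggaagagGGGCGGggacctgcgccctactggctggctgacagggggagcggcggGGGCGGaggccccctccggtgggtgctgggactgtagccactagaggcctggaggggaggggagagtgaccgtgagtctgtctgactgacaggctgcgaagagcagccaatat
Rbpj: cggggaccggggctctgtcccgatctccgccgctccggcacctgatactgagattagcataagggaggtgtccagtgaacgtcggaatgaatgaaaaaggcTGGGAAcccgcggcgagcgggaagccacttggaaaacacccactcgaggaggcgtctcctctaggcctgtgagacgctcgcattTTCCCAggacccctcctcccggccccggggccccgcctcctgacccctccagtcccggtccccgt

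The 3 AGGAAG matches of Notch4 began 245, 197 and 73 bases before the start, and this motif is in 29.5% of the 32851 windows of the table. Among the 8 Notch genes it was in the windows of Notch4 and Dll1, 2 of 10 windows. The GC box was found in 4 of the 8 genes, Notch1, Notch2, Dll4 and Jag2 (4 of 10 windows), and in 32.7% of all windows. Dll4 held it 160 and 113 bases before the start. The Rbpj core was found in 1 of the 8, Rbpj itself, at 149 and 65 bases before the start shown. It was in 2 of the 10 windows and in 21.6% of all windows. A match describes letters only.

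Notch4, a receptor found mainly in endothelium, had the largest change of the 11 tested probe sets. Its brighter probe set (1449146_at) read 131 and 358 in pcDNA clones 1 and 2 and 672 and 411 in pcDNA/Prox1 clones 1 and 2. Both pcDNA/Prox1 clones lay above both pcDNA clones, and the gap between the pcDNA clones was wide. Means were 245 ± 160.3 (SD, n = 2) and 541 ± 185, a ratio of 2.21, and the log2 change was 1.09 ± 0.37 (SE; 95% confidence interval 0.25 to 1.94), which did not pass (limma adjusted p = 0.246). Between pcDNA clones 2 and 1 it differed by 1.18, more than between the groups. The summed endothelial markers ran in the same order as this probe set, with 26478 and 33134 in pcDNA clones 1 and 2 and 36590.1 and 34029 in pcDNA/Prox1 clones 1 and 2, and their part in the result was not tested. In such bulk RNA, fewer expressing cells and less RNA per cell cannot be told apart. The change was 0.50 without pcDNA clone 1 and 1.69 without pcDNA clone 2, where it passed (adjusted p = 0.00674), in a fit with 1 pcDNA array whose p holds no spread between pcDNA clones.

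The other Notch4 probe set (1456263_at) stood below the filter and did not show this difference. It read 95.4 and 134 in the pcDNA clones and 132 and 100.3 in the pcDNA/Prox1 clones, so the groups overlapped. Its log2 change was 0.017 (95% confidence interval -0.60 to 0.64, limma without the filter, adjusted p = 0.991), and it turned negative under quantile normalization (-0.0079) and median centring (-0.028). The change at the brighter Notch4 probe set was thus not repeated at the dimmer. Their 95% confidence intervals overlap, and a difference between the probe sets was not tested.

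Notch1, the receptor most studied in endothelium, overlapped between the groups at both probe sets. The brighter probe set (1418634_at) read 888 and 1337 in the pcDNA clones against 1209 and 1447 in the pcDNA/Prox1 clones. The lowest was pcDNA clone 1, and pcDNA clone 2 lay between the pcDNA/Prox1 clones. The log2 change was 0.27 ± 0.23 (95% confidence interval -0.26 to 0.79, limma adjusted p = 0.653), and it was -0.015 without pcDNA clone 1 and 0.55 without pcDNA clone 2. The other probe set (1418633_at) read 336 and 425 against 485 and 283, with both pcDNA/Prox1 clones outside the range of the pcDNA clones on opposite sides, and a log2 change of -0.022 (-0.62 to 0.57, adjusted p = 0.981).

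Notch2, a receptor widely expressed outside endothelium as well, was dim. Its brighter probe set (1455556_at) read 218 and 122 in the pcDNA clones and 144 and 118 in the pcDNA/Prox1 clones, with 1 of 4 arrays above the array median. The dimmer (1451889_at) read 51.1 and 103 against 71.9 and 72.5, and exceeded the highest Bacillus control on 2 of 4 arrays. The groups overlapped at both, with log2 changes of -0.25 and -0.023 (limma without the filter, adjusted p of 0.824 and 0.987).

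**Figure D2:**
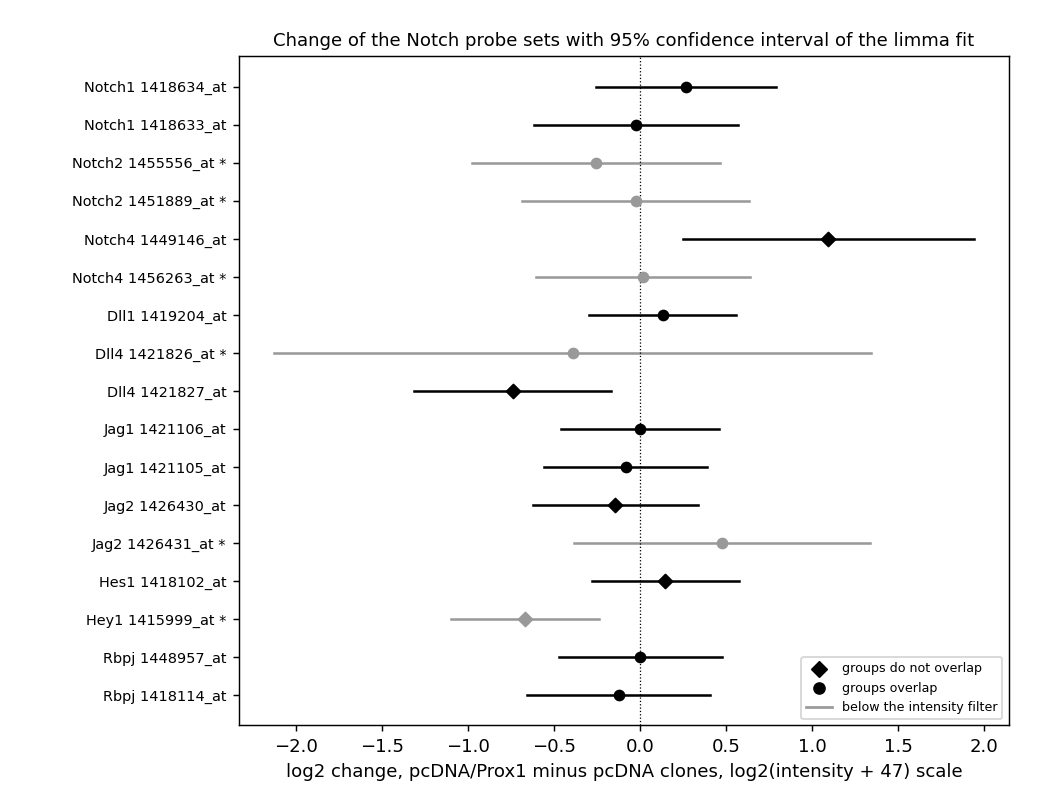
Log2 change between the groups for each of the 17 Notch probe sets, on the log2(intensity + 47) scale, with the 95% confidence interval of the limma fit as a bar. Diamonds are probe sets whose groups do not overlap, and grey marks those below the filter, read from the fit without it. The intervals of Notch4 1449146_at, Dll4 1421827_at and Hey1 leave out 0 before adjustment for the number of probe sets, and the interval of Dll4 1421826_at is the widest.

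Dll4, the Delta-like ligand of arteries and of the tip cells of sprouts, was the ligand with the largest tested change. The tested probe set (1421827_at) read 163 and 256 in pcDNA clones 1 and 2 and 96.8 and 112 in pcDNA/Prox1 clones 1 and 2. Both pcDNA/Prox1 clones lay below both pcDNA clones. The mean went from 209.8 ± 65.9 to 104 ± 10.7 (SD, n = 2), a ratio of 2.01 between pcDNA and pcDNA/Prox1 clones, and the log2 change was -0.74 ± 0.25 (95% confidence interval -1.31 to -0.17). This probe set passed the filter only through the pcDNA clones, and both pcDNA/Prox1 clones lay under the medians of their arrays. It did not pass the test (limma adjusted p = 0.246, and 0.457 in the fit without the filter), and stood at -1.0 on leaving out pcDNA clone 1 and at -0.47 on leaving out pcDNA clone 2.

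The other Dll4 probe set (1421826_at) was set by a difference between the pcDNA clones. It read 76.1 in pcDNA clone 1 and 565 in pcDNA clone 2, with 157 and 168 in the pcDNA/Prox1 clones between them. Control clones 2 and 1 stood 2.31 apart on the log2 scale, the largest such gap among the 17 probe sets, and the pcDNA/Prox1 clones 0.076 apart. The log2 change of -0.39 (95% confidence interval -2.12 to 1.34, limma without the filter, adjusted p = 0.893) became -1.55 without pcDNA clone 1 and 0.77 without pcDNA clone 2, so its direction rests on which pcDNA clone is kept.

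Dll1, another Delta-like ligand, was among the brighter Notch probe sets. It read 861 and 955 in the pcDNA clones and 949 and 1050.0 in the pcDNA/Prox1 clones, and the groups overlapped. The log2 change of its 1 probe set (1419204_at) was 0.13 ± 0.19 (95% confidence interval -0.29 to 0.56, limma adjusted p = 0.802), with a range from 0.061 to 0.20 on leaving out a clone.

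The Jagged ligands, which can compete with Dll4 for Notch receptors in vessels, gave changes near 0 at their brighter probe sets. Jag1 read 418 and 482 in the pcDNA clones and 494 and 409 in the pcDNA/Prox1 clones at its brighter probe set (1421106_at), with a log2 change of 1.1e-05 (95% confidence interval -0.46 to 0.46, limma adjusted p = 1.00). At the other probe set (1421105_at) it read 278 and 244 against 261 and 227 (-0.082, -0.55 to 0.39, adjusted p = 0.899). The groups overlapped at both, with the pcDNA/Prox1 clones on either side of the pcDNA clones at the brighter probe set.

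Jag2 did not overlap at its brighter probe set (1426430_at), by a narrow margin. It read 199 and 210.2 in the pcDNA clones and 171 and 191 in the pcDNA/Prox1 clones, a log2 change of -0.14 ± 0.21 (95% confidence interval -0.62 to 0.34, limma adjusted p = 0.811). The dim probe set (1426431_at) read 10.4 and 31.3 against 84.4 and 19.2 and stayed under the highest Bacillus control on all 4 arrays, so its ratio of means of 2.48 rests on 1 array at the level of background. Its log2 change of 0.48 became -0.018 without pcDNA/Prox1 clone 1.

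Rbpj, the factor that carries the Notch signal to DNA, had changes near 0. The brighter probe set (1448957_at) read 668 and 497 in the pcDNA clones and 572 and 584 in the pcDNA/Prox1 clones, which lay between the pcDNA clones. The log2 change was 0.0030 ± 0.21 (95% confidence interval -0.47 to 0.47, limma adjusted p = 0.997). The other probe set (1418114_at) read 261 and 219 against 259.7 and 179, with a change of -0.12 (-0.65 to 0.41, adjusted p = 0.860).

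The target genes Hes1 and Hey1 gave changes of opposite sign, with the Hey1 signal near background. Hes1, a repressor induced by Notch in many tissues, read 496 and 481 in the pcDNA clones and 537 and 555 in the pcDNA/Prox1 clones (1418102_at). Its groups did not overlap, with a ratio of means of 1.12 and a within-group spread of 10.7 and 12.6 (SD, n = 2). The log2 change was 0.15 ± 0.19 (95% confidence interval -0.28 to 0.57, limma adjusted p = 0.781), and it stayed between 0.13 and 0.17 on leaving out any clone.

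Hey1, a repressor of arterial endothelium, was dim and lower in both pcDNA/Prox1 clones. It read 65.7 and 75.1 in pcDNA clones 1 and 2 and 27.0 and 26.6 in pcDNA/Prox1 clones 1 and 2 (1415999_at). The groups did not overlap, and the clones within each were close, with means of 70.4 ± 6.69 and 26.8 ± 0.25 (SD, n = 2), a ratio of 2.63 between pcDNA and pcDNA/Prox1 clones. Only the signal of pcDNA clone 1 exceeded the highest Bacillus control of its array. Readings so near background do not show whether Hey1 was expressed, and both direction and size of a difference in its RNA are uncertain. Without the filter the log2 change was -0.67 ± 0.18 (95% confidence interval -1.10 to -0.24), the smallest unadjusted p of the 17 probe sets (0.00916), and it did not pass (limma adjusted p = 0.382). The change was -1.39 with no pseudocount and -0.28 with a pseudocount of 173. It stayed between -0.73 and -0.61 on leaving out any clone.

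**Figure D3:**
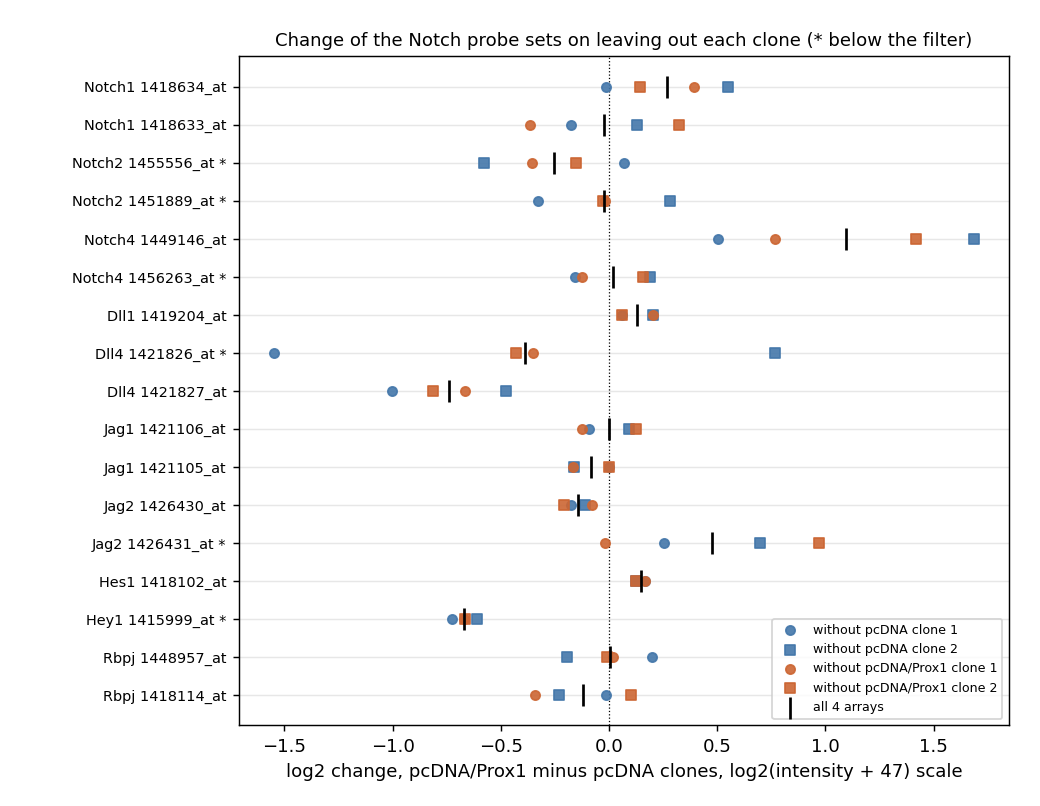
Log2 change of each of the 17 Notch probe sets with all 4 arrays (black bar) and with each clone left out (blue for a pcDNA clone, orange for a pcDNA/Prox1 clone). With the choice of pcDNA clone, Notch4 1449146_at moves between 0.50 and 1.69 without changing sign, and Dll4 1421826_at between -1.55 and 0.77. Hey1, Hes1, Dll1, Dll4 1421827_at and Jag2 1426430_at also keep their direction.

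The pcDNA clones were compared with each other on the same scale. At 12 of the 17 probe sets the pcDNA clones stood further apart on the log2 scale than the groups did, against 58.2% of all probe sets. At the 11 tested probe sets this held for 8, against 56.7%. The exceptions among the 17 were Dll4 1421827_at, Jag2 at both probe sets, Hes1 and Hey1.

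The patterns most like those of Dll4 1421827_at and Notch4 1449146_at were sought over the 4 arrays, as the smallest root mean square difference of log2 values centred on their mean. Nearest to Dll4 were Alg1 (0.015), Flot2 (0.028) and Atp6v0a1 (0.051), with log2 changes of -0.72, -0.70 and -0.72. Nearest to Notch4 were Dock8 (0.089), Clu (0.097) and Slc31a2 (0.13), with changes of 1.07, 1.17 and 1.29. A total of 4 arrays cannot separate such likeness from the many probe sets compared.

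Genes that build the rest of the pathway were read from fixed lists, each gene by its brightest tested probe set. Of 62 listed genes 54 were on the array and 36 were tested. By limma 0 passed in either direction, and 4 had an unadjusted p under 0.05, where the share over the array was 14.5%. Changes were positive for 20 and negative for 16 (18 and 18 under quantile normalization or median centring), with a median of 0.051, and the groups did not overlap at 17 of the 36, against 46.2% over the array. A gene high in 1 group could enter these counts through that group alone.

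The remaining receptor, Notch3, which is known from smooth muscle and pericytes, overlapped between the groups (142 and 229 in pcDNA clones, 213 and 137 in pcDNA/Prox1 clones, log2 change -0.060, limma adjusted p = 0.949). Of 5 other ligand or ligand-like genes 1 was tested, Egfl7, a protein secreted by endothelium. It read 9348 and 12774 in pcDNA clones against 12777 and 12716 (0.22, adjusted p = 0.637).

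Other target genes were mostly dim, and 4 of 12 were tested, with 2 positive, 2 negative and a median of 0.14. Ccnd1, the cyclin D1 gene, read 3105 and 2336 in pcDNA clones and 5114 and 4022 in pcDNA/Prox1 clones, without overlap (0.74, limma adjusted p = 0.188). Nrarp, a feedback inhibitor induced by Notch, read 1287 and 1922 against 2308 and 1789 and overlapped (0.36, adjusted p = 0.531). Its other probe set (1417986_at) read 615 and 809 against 1308 and 853, without overlap (0.55, adjusted p = 0.348).

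Among genes of receptor processing, 6 of 10 were tested, 5 of them positive (4 under quantile normalization or median centring), with a median of 0.18. Furin, the protease that cuts the receptor on its way to the surface, read 393 and 461 in pcDNA clones against 647 and 549 (0.44, limma adjusted p = 0.357). Adam10, the protease that cuts the bound receptor, read 2320 and 2438.5 against 2770.4 and 2899.8 (0.25, adjusted p = 0.557). Both lay higher in the pcDNA/Prox1 clones without overlap.

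The glycosylation genes, whose sugars tune which ligand a receptor answers to, split in direction, with 2 of 4 tested genes positive. Rfng, a fringe sugar transferase, read 379 and 319 in pcDNA clones and 209.5 and 191 in pcDNA/Prox1 clones (-0.68, limma adjusted p = 0.211). Poglut1, which adds glucose to the receptor, read 181 and 288 against 446 and 359.9 (0.70, adjusted p = 0.254). Neither overlapped between the groups. The other tested probe set of Rfng (1421160_a_at) had a change of -0.50 (adjusted p = 0.356) and passed the filter only through the pcDNA clones.

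Of 17 nuclear cofactors 11 were tested, with 7 positive and a median of 0.13. Tle4, a corepressor of the Groucho family, read 361 and 479 in pcDNA clones and 633 and 710.3 in pcDNA/Prox1 clones (0.63, limma adjusted p = 0.237). Spen, a corepressor that binds Rbpj, read 199 and 156 against 278 and 214 (0.38, adjusted p = 0.484). Both were higher without overlap.

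Endocytosis and turnover genes had 6 negative changes of 9 tested (7 under quantile normalization or median centring), with a median of -0.15. Dtx3, a Deltex ubiquitin ligase, read 263 and 346 in pcDNA clones and 180.1 and 245 in pcDNA/Prox1 clones (-0.44, limma adjusted p = 0.424). Mib1, the ubiquitin ligase that activates Notch ligands, read 382 and 399 against 331 and 284 (-0.31, adjusted p = 0.528). At both genes the pcDNA/Prox1 clones lay below the pcDNA clones.

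**Figure D4:**
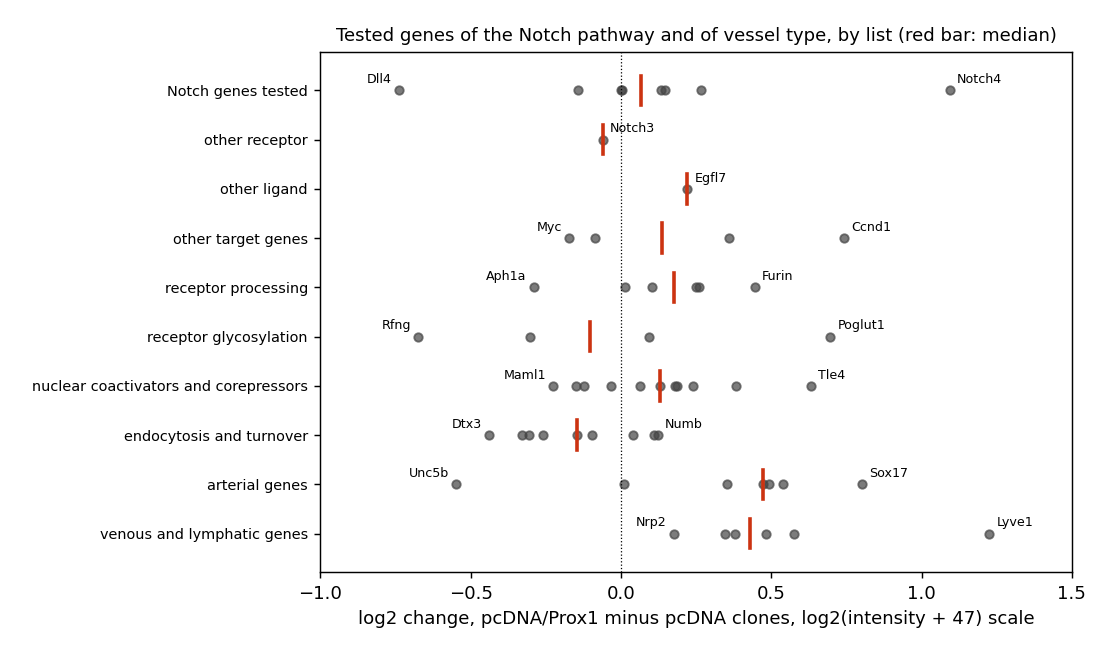
Log2 change of every tested gene in the Notch lists and in the arterial and the venous and lymphatic list, 1 point per gene at its brightest tested probe set, with the list median as a red bar and the outermost genes named. The Notch genes run from -0.74 (Dll4) to 1.09 (Notch4) around a median of 0.067, while the 6 venous and lymphatic genes tested all lie above 0. Prox1 and Pdpn of that list were below the filter and are not shown.

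Vessel type genes that the pathway is known to influence were set beside it. Of 12 arterial genes 7 were tested, 6 of them positive (5 under median centring), with a median of 0.47, and 0 passed by limma, with 3 at an unadjusted p under 0.05. Over the array 51.5% of tested probe sets were positive and 14.5% had such a p. The groups did not overlap at 4 of the 7, against 46.2% over the array. Sox17 is in each of these counts and passed the filter only through the pcDNA/Prox1 clones, so nothing is read from them. Sox17, an arterial transcription factor, read 105 and 81.7 in pcDNA clones and 193 and 200.2 in pcDNA/Prox1 clones (0.80, adjusted p = 0.188), and its other tested probe set (1429177_x_at) gave 1.84 (adjusted p = 0.0686). Both passed the filter only through the pcDNA/Prox1 clones, where they are high, and in the fit without the filter their adjusted p was 0.396 and 0.367. Nrp1, a co-receptor of arteries, read 1324 and 1620 against 2129 and 1972 (0.47, adjusted p = 0.302). Its probe set 1418084_at read 789 and 906 against 1173 and 854 and overlapped (0.23, adjusted p = 0.679), and 1448944_at read 274 and 162 against 316 and 279 (0.41, adjusted p = 0.497). Other tested genes of this list overlapped between the groups, namely Unc5b (-0.55), the negative one, Efnb2 (0.35) and Sox18 (0.0094). Hey2 was at 12.9 or less on each array, under the highest Bacillus control.

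The venous and lymphatic list had 6 of 8 genes tested, and all 6 were higher in the pcDNA/Prox1 clones without overlap, with a median of 0.43, where 23.9% of tested probe sets were higher without overlap. The genes of the list below the filter, Prox1 (-0.047) and Pdpn (0.10), overlapped between the groups. By limma 0 of the 6 passed, with 3 at an unadjusted p under 0.05 (14.5% over the array). The 8 general endothelial markers also had positive changes, from 0.12 (Pecam1) to 0.92 (Tek), and Emcn (0.35) is in both lists. Both pcDNA/Prox1 sums of the endothelial markers lay above both pcDNA sums, and their part in the result was not tested. Nr2f2, the venous factor known to oppose Notch, read 558 and 479 in pcDNA clones against 763 and 825 (0.57, adjusted p = 0.238). Lyve1, the lymphatic hyaluronan receptor, gave 1.22 (adjusted p = 0.165). These genes were listed with earlier results of these arrays known, so their common direction is a description.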

How the data were processed

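The deposited values are intensities per probe set, made by the authors with MAS5 per the submitters' processing notes (version not given in the sources used here), 1 column per array. Equal 2% trimmed means show that each array had been scaled, and no further normalization was applied. Detection calls were not used here. Names come from the platform annotation, and 20351 of 20380 probe sets with 1 gene matched RefSeq (GRCm38.p6) by Entrez identifier. Groups and clone numbers are from the titles. The analysis used log2(intensity + 47), with 47 the 25th percentile of the values, a scale that understates changes of dim probe sets. Probe sets above their array's median in at least 2 of 4 arrays (11656) were tested with limma 3.58.1 in R 4.3.3 (lmFit, eBayes with intensity trend, 2-sided, Benjamini-Hochberg). Members below this filter were read from the same fit without it. The procedure was tested on simulated data with 200 changed probe sets of 11656, where it called 204, of which 18 were false. It recovered 86% of the 2-fold and 100% of the 4-fold changes. The simulated noise was normal and took the standard deviation that limma had already smoothed for each probe set as the true one. These shares therefore do not show how many changes would be found among these clones. Named were all 10 genes and, from each list, up to 4 genes past the threshold or else the 2 with the smallest p. Other probe sets of these genes, and Prox1, Pdpn, the marker genes, Hey2, Unc5b, Efnb2 and Sox18, were named after their values were seen. So were Hes2, Hes3, Hes5, Hes6 and Hes7. Members, lists and tests were chosen with earlier results of these data known. Alternatives covered normalization, pseudocount, filter, variance model, clone number as a block, leaving out clones, and probe set choice. The number of arrays limits the precision.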

Additional observations from a re-analysis of the deposited data

How the results depend on the processing

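Over all probe sets limma called 12, against 4 under quantile normalization, 7 with the robust variance model, 6 without probe sets of a shared-transcript suffix, and 0 of 22626 without the filter, where 2300 had an unadjusted p under 0.05. The count ran from 42 without pcDNA/Prox1 clone 1 to 1150 without pcDNA clone 2 on leaving out a clone, and the 12 were among those called each time. With the clone number as a replicate block it was 110, and 0 of the Notch probe sets passed. Clones of the same number did not deviate together over the tested probe sets as a whole (correlation -0.0091), and the main fit does not pair them. A shared deviation in part of the probe sets was not tested. The count of Notch probe sets called was 0 under each alternative run except without pcDNA clone 2, where it was 1 (Notch4 1449146_at), a range from 0 to 1. At the 75th percentile filter 3 Notch probe sets were left to test. Of the 17, 6 kept their direction in each alternative run (Dll4 1421827_at, Notch4 1449146_at, Dll1, Hes1, Hey1 and Jag2 1426430_at). Changes near 0 turned: Notch4 1456263_at to -0.0079 (quantile) and -0.028 (median centring), Jag1 1421106_at to -0.032, -0.045 and, with no pseudocount, -0.00025, and Rbpj 1448957_at to -0.022 and -0.042. The mean over probe sets gave -0.041 for Jag1 and -0.059 for Rbpj. On leaving out a clone, ranges crossed 0 for Notch1 1418634_at (-0.015 to 0.55) and 1418633_at (-0.37 to 0.32), Notch2 1455556_at (-0.58 to 0.070) and 1451889_at (-0.33 to 0.28), Notch4 1456263_at (-0.16 to 0.19), Dll4 1421826_at (-1.55 to 0.77), Jag1 1421106_at (-0.12 to 0.12) and 1421105_at (-0.17 to 0.0014), Jag2 1426431_at (-0.018 to 0.97), and Rbpj 1448957_at (-0.19 to 0.20) and 1418114_at (-0.34 to 0.10). The cause was not tested. Probe sets near the Bacillus controls, Hey1 among them, have no settled size of change. A sign kept by signals near background does not settle the direction of a change in RNA.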

Other observations

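Among dim Hes genes outside the named set, Hes2, Hes3 and Hes7 each separated the groups below the filter, while Hes5 and Hes6 overlapped. Over all probe sets of the array, tested or not, the groups did not overlap at 41.1%. Hes2 (1423029_at) read 8.36 and 6.67 in pcDNA clones 1 and 2 and 36.3 and 34.8 in pcDNA/Prox1 clones 1 and 2, a log2 change of 0.60 (limma without the filter, adjusted p = 0.367). Hes3 (1422409_at) went the other way, from 36.1 and 40.9 to 14.3 and 11.0 (-0.52, adjusted p = 0.386). Hes7 (1422950_at) read 27.7 and 30.8 in the pcDNA clones and 32.8 and 33.3 in the pcDNA/Prox1 clones (0.070, limma without the filter, adjusted p = 0.916). All values of Hes2, Hes3 and Hes7 lay under the highest Bacillus control of their array.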
